A study of Mus musculus with 18 samples.

Results

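The genes described here are the 6 core genes of cytosolic DNA signalling in the mouse, namely Cgas, Trex1, Sting1 (listed under its older symbol Tmem173), Tbk1, Ikbke and Irf3. They were chosen by symbol, and all 6 are among the 13853 genes listed in both deposited tables, which hold 21830 genes for spleen and 14423 for bone marrow. The spleen table lists Cgas under its older symbol Mb21d1, which was matched through the RefSeq synonym.

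Cells of C57BL/6 mice of 2 genotypes were compared in 18 libraries. Cgas-/- cells lack cGAS and carry intact Trex1 and Sting1. Cells of the other genotype, called dKO, are Trex1-/-;Sting1gt/gt, so they lack the exonuclease TREX1 and carry the goldenticket allele of Sting1, and they keep Cgas. All spleens were those of lethally irradiated dKO hosts, 5 given Cgas-/- marrow and 5 given dKO marrow 12 weeks earlier, so every spleen also holds whatever dKO host cells survived irradiation. Untransplanted bone marrow came from 4 Cgas-/- and 4 dKO libraries. Each comparison is between 2 mutants, and no wild-type group is analysed here. The age of the animals is not given in the labels.

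cGAS binds DNA in the cytosol and makes cGAMP, a small messenger that binds STING on the endoplasmic reticulum. STING moves to the Golgi and brings together the kinase TBK1, or its relative IKKε encoded by Ikbke, and the transcription factor IRF3, which then enters the nucleus and switches on type I interferon genes. TREX1 works at the other end, degrading the DNA that cGAS would sense. This route is known for the interferon-driven inflammation of Trex1-deficient animals, and cGAMP can pass from the cell that makes it to its neighbours.

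RNA was read with QuantSeq, which counts tags from the polyadenylated end of each transcript, so a count does not scale with transcript length. Because the tags come from the end, an allele that interrupts a gene elsewhere can still be counted. Annotated ends of the genes that changed are therefore shown, with a match to a polyadenylation signal in capitals. Which of these ends carry the tags is not known from the values used here. Each sequence is read 5′ to 3′ on the minus strand of chromosome 9 (GENCODE M21 transcripts, GRCm38).
Trex1 end: tatgatgAATAAAgacttccatagcactga
Atrip end: ATTAAAactgcacttcctgctgagaacaca
Cgas inner end: taagaacccccaaaatgtgAATAAAataat
Cgas outer end: gtatctctcAATAAAtaagatttaaatgtt
The first lies at chr9:109057933-109057962, the second at chr9:109059748-109059777 (printed up to 1 base before the annotated end), the third at chr9:78431337-78431366 and the last at chr9:78430526-78430555. Atrip, which encodes the partner of the DNA damage kinase ATR, lies directly before Trex1 on the same strand. Its first annotated transcript ends 13 bases before the first base of Trex1, as the next stretch shows with the 12 bases between the annotated transcripts in capitals (chr9:109059724-109059753, RefSeq promoter table, GRCm38.p6).
Atrip end to Trex1 start: aacacaaGCTTTGTTTCCTgagtccgattt
Another annotated Atrip transcript runs on through Trex1 and shares its last base. Reads of Trex1 and of this form of Atrip cannot be told apart at that end, and the authors' rule for such reads is not given in the sources used here. Over the last 500 bases of their transcripts, Trex1 was the member with another gene on the same strand (2 of 2 transcripts), and the other members had none there.

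Of the 6 members, Trex1 and Cgas changed in both tissues and in opposite directions, and the other 4 did not pass the test in either. In the authors' deposited table for spleen, 2 of 6 members passed a DESeq2 adjusted p of 0.05, where 0.133% of all genes did. For bone marrow 2 of 6 passed in the authors' deposited table, where 0.534% of all genes did. Trex1 was the member called higher, as were 0.055% of all genes in spleen and 0.173% in bone marrow, and Cgas the member called lower, as were 0.0779% and 0.361%. The genotypes alter 3 members, and the directions of Trex1 and Cgas match the labels, while the point mutation in Sting1 need not change its level. Tags from a transcript's end may lie outside the altered part of a gene. The tables used hold 1 mean per gene and comparison, so each group's level is the one implied by the authors' mean over both groups and their fold change, and it carries no SD. The errors given are the authors' standard errors of the log2 fold change, over 5 and 5 libraries in spleen and 4 and 4 in bone marrow. In these mixed cell suspensions, fewer cells of a type and less RNA per cell cannot be told apart.

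**Figure D1:**
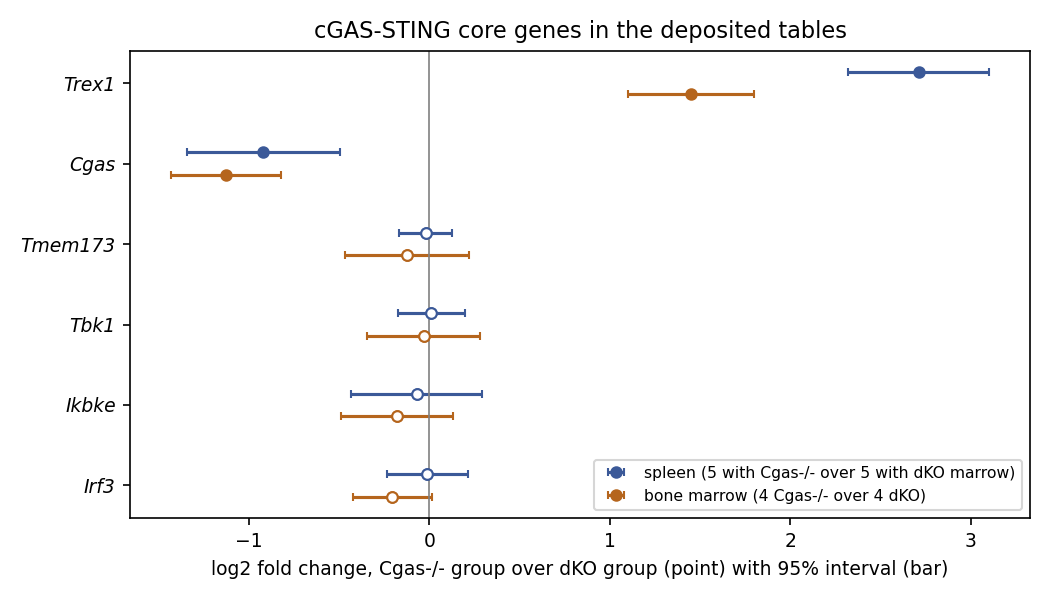
Log2 fold change of each member (point) with its 95% interval (bar), Cgas-/- group over dKO group, in spleen (above) and bone marrow (below). Filled points passed a DESeq2 adjusted p of 0.05 and open points did not. Trex1 lies at 2.71 in spleen and 1.45 in bone marrow, Cgas at -0.92 and -1.13, and the intervals of the other 4 genes include 0 in both tissues.

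Trex1, which removes the DNA, was higher in the Cgas-/- groups. The implied normalized count in spleen was 144 with Cgas-/- marrow, against 22.0 with dKO marrow. In bone marrow it was 276 in Cgas-/- cells, against 101 in dKO cells. The authors' deposited table for spleen gives a log2 fold change of 2.71 ± 0.199, which is 6.55-fold with a 95% interval of 5.004 to 8.58 (adjusted p = 8.48e-39 from DESeq2). For bone marrow the authors' deposited table gives 1.45 ± 0.178, which is 2.73-fold with an interval of 2.15 to 3.48 (adjusted p = 7.93e-13 from DESeq2). Put the other way, the Trex1 tags left in dKO libraries came to 15.3% of the Cgas-/- level in spleen (95% interval 11.6% to 19.98%) and to 36.6% in bone marrow (28.7% to 46.6%). By absolute Wald statistic, Trex1 ranked 5 of 21830 genes in spleen and 6 of 14423 in bone marrow in the authors' deposited tables. With a t null distribution in place of the normal, adjusted over all genes, Trex1 kept its call in spleen (adjusted p = 0.00348) and lost it in bone marrow (0.438).

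The Trex1 difference was itself larger in spleen than in bone marrow. The comparisons are not alike, since the spleens were those of transplanted dKO hosts and the marrow was untransplanted, so tissue and transplantation cannot be told apart. The spleen minus bone marrow log2 fold change was 1.26 ± 0.267 (z = 4.73), so the fold in spleen was 2.40 times that in bone marrow, with a 95% interval of 1.67 to 3.44. Over the 13853 shared genes this passed a two-sided normal test with Benjamini-Hochberg adjustment (adjusted p = 0.00434), as did 0.0577% of them, 8 genes in all. Of the 6 members, 1 passed this test, and the same 1 had an unadjusted p under 0.05, as did 4.83% of the shared genes. Another 3 of the 8 genes, Tma7, Rpl29 and Rassf1, named because they passed, also lie on chromosome 9, as do 5.75% of the shared genes. With a t distribution the call on Trex1 was lost (adjusted p = 0.632). The tables were made separately, and 78 shared genes are listed in them under different symbols. The part of that in the Trex1 difference was not tested.

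Atrip fell in spleen, the direction opposite to Trex1. The implied normalized count of Atrip in spleen was 78.3 with Cgas-/- marrow, against 156 with dKO marrow. In bone marrow it was 151 in Cgas-/- cells, against 199 in dKO cells. The authors' deposited table for spleen lists -0.998 ± 0.170 for Atrip, which passed (adjusted p = 4.64e-06 from DESeq2) and did not with a t distribution (adjusted p = 0.391). For bone marrow the authors' deposited table lists -0.40 ± 0.156, which did not pass (adjusted p = 0.314 from DESeq2, unadjusted p = 0.0101). The spleen minus bone marrow difference for Atrip was -0.60 ± 0.231 and did not pass the normal test (adjusted p = 0.838). The Trex1 count was 1.84 times the Atrip count with Cgas-/- marrow in spleen, against 0.141 times with dKO marrow, and in bone marrow 1.83 times in Cgas-/- cells, against 0.508 times in dKO cells. The Cgas-/- groups of both tissues thus gave nearly the same ratio, and the dKO groups gave ratios further apart, with no test of this. Summed over both genes, the implied count was 222 with Cgas-/- marrow and 178 with dKO marrow in spleen, and 427 in Cgas-/- and 300.2 in dKO bone marrow.

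Cgas, the sensor, was lower in the Cgas-/- groups but not near 0. Its implied normalized count in spleen was 44.3 with Cgas-/- marrow, against 83.9 with dKO marrow. In bone marrow it was 147 in Cgas-/- cells, against 322 in dKO cells. The authors' deposited table for spleen, where the gene is listed as Mb21d1, gives -0.92 ± 0.217, a 1.89-fold difference (adjusted p = 0.0176 from DESeq2). The authors' deposited table for bone marrow gives -1.13 ± 0.155, a 2.18-fold difference (adjusted p = 6.99e-10 from DESeq2). The Cgas tags left in the Cgas-/- groups were thus 52.8% of the dKO level in spleen (95% interval 39.3% to 71.0%) and 45.8% in bone marrow (37.1% to 56.5%). The call in spleen was lost at a threshold of 0.01, with Holm adjustment (adjusted p = 0.491) and with a t distribution, and the call in bone marrow with a t distribution (adjusted p = 0.570). The tissues differed in this by 0.21 ± 0.267 on the log2 scale, which did not pass (adjusted p = 0.999, normal test), and the 95% interval of that difference, -0.32 to 0.73, leaves room for a ratio between tissues of 0.803 to 1.66. Cgas has annotated ends 811 bases apart, both shown above, and the tables do not separate tags from each. With Trex1 and Cgas moving apart, the Trex1 count was 3.25 times the Cgas count with Cgas-/- marrow in spleen, against 0.262 times with dKO marrow. In bone marrow it was 1.88 times in Cgas-/- cells, against 0.314 times in dKO cells.

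**Figure D2:**
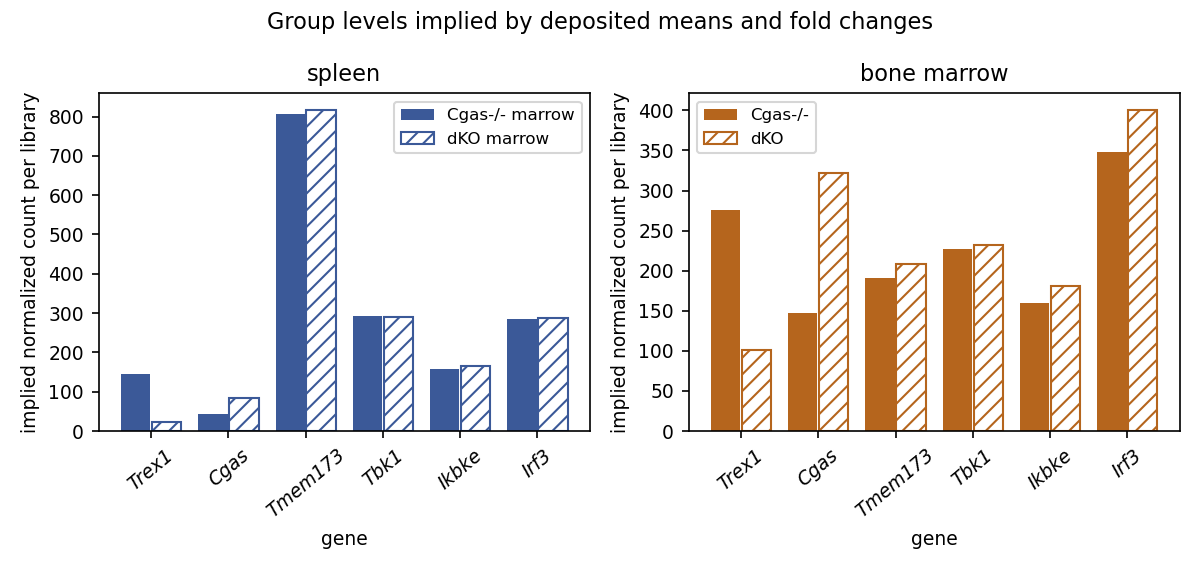
Implied normalized count per library of each member (y axis, from 0) in the Cgas-/- group (filled bars) and the dKO group (hatched bars), in spleen (left) and bone marrow (right). No error bars are drawn because values per library were not used. Trex1 (144 against 22.0 in spleen) and Cgas (44.3 against 83.9) differ between bars, and Tmem173 is the tallest in spleen.

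Sting1, the cGAMP receptor, did not differ detectably between the groups. As Tmem173, its implied normalized count in spleen was 807 with Cgas-/- marrow and 818 with dKO marrow. In bone marrow it was 191 in Cgas-/- cells and 208 in dKO cells. The authors' deposited table for spleen gives -0.02 ± 0.0751 (adjusted p = 0.999997 from DESeq2), and its 95% interval spans ratios of 0.891 to 1.09. For bone marrow the authors' deposited table gives -0.13 ± 0.176 (adjusted p = 0.937 from DESeq2), an interval of 0.722 to 1.16. Goldenticket changes a single base of the coding sequence, so this level does not check the genotype. On GRCm38, Sting1 lies at 35733679 to 35740554 on chromosome 18.

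The kinases next in line were also close to even. Tbk1, which phosphorylates STING and IRF3, had an implied normalized count of 292 in spleens with Cgas-/- marrow and 290 with dKO marrow, and of 228 in Cgas-/- and 233 in dKO bone marrow. In the authors' deposited tables its log2 fold change was 0.01 ± 0.0953 in spleen and -0.03 ± 0.161 in bone marrow (adjusted p = 0.999997 and 0.994 from DESeq2). Ikbke, which encodes the kinase IKKε, had 157 in spleens with Cgas-/- marrow and 165 with dKO marrow, and 159 in Cgas-/- and 180 in dKO bone marrow. Its log2 fold change in the authors' deposited tables was -0.07 ± 0.185 in spleen and -0.18 ± 0.159 in bone marrow (adjusted p = 0.999997 and 0.864 from DESeq2). The Ikbke count was 0.539 times the Tbk1 count with Cgas-/- marrow and 0.570 times with dKO marrow in spleen, and 0.699 times in Cgas-/- and 0.775 times in dKO bone marrow.

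Irf3, the transcription factor at the end of the chain, had the smallest p of the 4 members without a call, in bone marrow. Its implied normalized count there was 348 in Cgas-/- cells and 401 in dKO cells, and the authors' deposited table gives -0.21 ± 0.112 (adjusted p = 0.619 from DESeq2, unadjusted p = 0.0650). In spleen it was 286 with Cgas-/- marrow and 289 with dKO marrow, at -0.01 ± 0.114 in the authors' deposited table (adjusted p = 0.999997 from DESeq2). The spleen minus bone marrow difference for Irf3 was 0.19 ± 0.160 and did not pass (adjusted p = 0.999, normal test).

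Between tissues, the spleen minus bone marrow log2 fold change was 0.11 ± 0.191 for Tmem173, 0.04 ± 0.187 for Tbk1 and 0.11 ± 0.244 for Ikbke, and none passed (adjusted p = 0.999 for each, normal test). Of the 3 members that neither genotype alters, Tbk1, Ikbke and Irf3, 2 were below 0 in spleen and 3 in bone marrow, where 55.0% of all genes in spleen and 50.5% in bone marrow were below 0 in the authors' deposited tables. Their 95% intervals together ran from ratios of 0.741 to 1.23 in spleen and from 0.711 to 1.22 in bone marrow. These bounds show what the data leave possible. For the 4 members without a call, the log2 estimate was read that would equal the weakest called Wald statistic, at the standard errors deposited. It ran from 0.31 (Tmem173) to 0.76 (Ikbke) in spleen and from 0.41 (Irf3) to 0.64 (Tmem173) in bone marrow. An estimate slightly below that size might still pass for the gene in question, and one well below it could not.

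The order of levels within a table differed between tissues. In spleen, Tmem173 had a mean normalized count of 812 in the authors' deposited table, more than 90.2% of genes with a mean of at least 20, followed by Tbk1 (291), Irf3 (287), Ikbke (161), Trex1 (83.0) and Cgas (64.1). In bone marrow the authors' deposited table has Irf3 (374) highest, followed by Cgas (234), Tbk1 (230), Tmem173 (200), Trex1 (189) and Ikbke (170). These are means over both groups of a comparison with no spread over libraries, so neighbours such as Tbk1 and Irf3 in spleen, or Cgas and Tbk1 in bone marrow, cannot be ranked apart. The tables were normalized separately, so the levels are compared within a table. Of the summed implied count of the 6 genes, Tmem173 held 46.6% with Cgas-/- marrow and 49.1% with dKO marrow in spleen, and 14.2% in Cgas-/- and 14.4% in dKO bone marrow. Its count relative to Tbk1 was 2.76 with Cgas-/- marrow and 2.82 with dKO marrow in spleen, and 0.839 in Cgas-/- and 0.896 in dKO bone marrow.

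Genes next to each member were read to see whether the locus moved as a whole. The nearest gene on each side with a mean of at least 20 in both tables was taken, with genes that overlap the member. Around Trex1 neighbours were called as well, Shisa5 in both tissues and Atrip and Tma7 in spleen. Shisa5, a gene of the endoplasmic reticulum that lies on the other strand and ends 0.156 kb from Trex1, was 1.76-fold higher with Cgas-/- marrow in spleen (0.81 ± 0.0746, adjusted p = 4.78e-24 from DESeq2, authors' deposited table). It was 1.53-fold higher in Cgas-/- bone marrow (0.61 ± 0.0841, adjusted p = 6.40e-10 from DESeq2, authors' deposited table). Tma7, a translation machinery gene, lies 14.8 kb from Trex1 on the far side of Atrip. It was 5.03-fold higher in spleen in the authors' deposited table (2.33 ± 0.191, adjusted p = 1.43e-30 from DESeq2). In bone marrow the authors' deposited table has -0.19 ± 0.0830 for Tma7 (adjusted p = 0.438 from DESeq2). Its mean normalized count was 91.4 in spleen and 2244 in bone marrow, in tables normalized separately. Whether both tables count this gene alike was not tested. In all, 16 of the 29 called genes in spleen and 14 of the 77 in bone marrow lie within 10 Mb of Trex1 on chromosome 9, where 1.21% of all genes tested in spleen and 1.33% in bone marrow lie. With a t distribution the calls on Shisa5 and Tma7 in spleen were kept, and that on Shisa5 in bone marrow was lost (adjusted p = 0.570).

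Around Cgas, on the same chromosome at 78430526 to 78443237, the neighbours did not pass. Mto1, a mitochondrial tRNA modification gene 4.97 kb away, had 0.29 ± 0.165 in spleen and -0.02 ± 0.219 in bone marrow in the authors' deposited tables (adjusted p = 0.999997 and 0.998 from DESeq2). On the other side Cilk1 (listed as Ick), a kinase gene 258 kb away, had -0.03 ± 0.255 and 0.18 ± 0.243 in the authors' deposited tables for spleen and bone marrow (adjusted p = 0.999997 and 0.935 from DESeq2). The pseudogene Gm8093, which overlaps an end of Cgas on the other strand, had a mean normalized count of 1.17 in spleen in the authors' deposited table. The genes beside Tmem173 (Dnajc18 and Ube2d2a), Tbk1 (Rassf3 and Xpot), Ikbke (Rassf5 and Srgap2) and Irf3 (Prmt1 and Rras) did not pass in either tissue. Of these, Srgap2 had the smallest p, with -0.25 ± 0.0977 in bone marrow in the authors' deposited table (adjusted p = 0.313 from DESeq2). Bcl2l12, whose first annotated transcript starts 69 bases from that of Irf3 on the opposite strand, had -0.16 ± 0.215 in spleen and -0.05 ± 0.248 in bone marrow in the authors' deposited tables (adjusted p = 0.999997 and 0.994 from DESeq2).

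**Figure D3:**
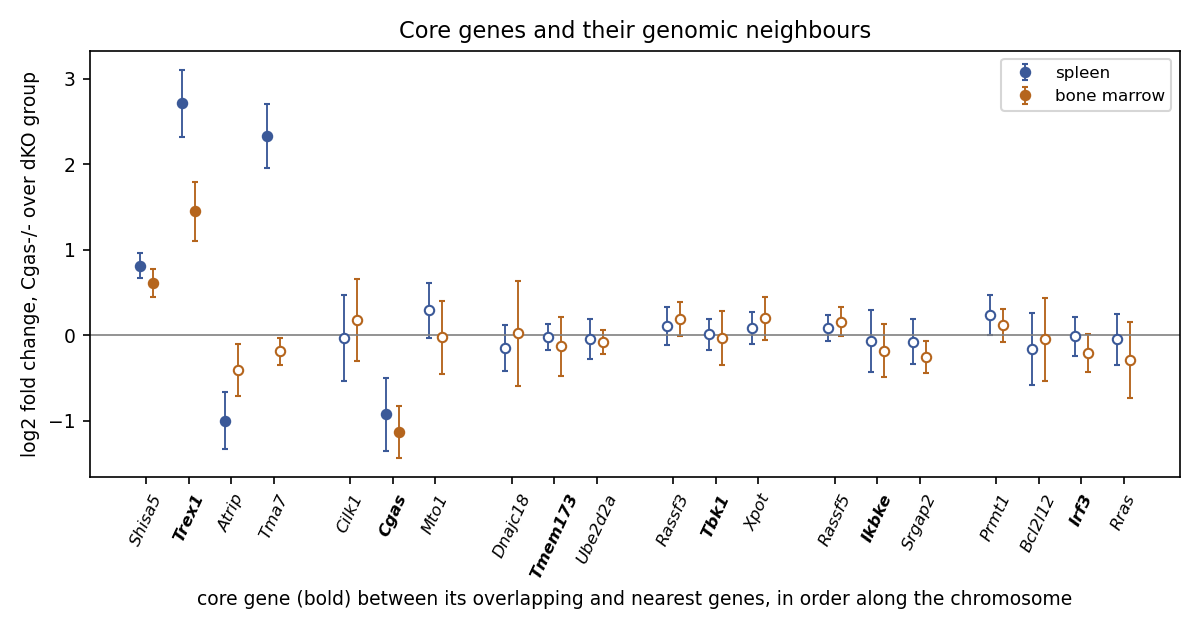
Log2 fold change with 95% interval (y axis, Cgas-/- group over dKO group) of each core gene (bold) and of its overlapping and nearest genes in chromosomal order, in spleen (blue) and bone marrow (brown). Filled points passed a DESeq2 adjusted p of 0.05. Around Trex1, Shisa5 lies at 0.81 and 0.61, Atrip at -0.998 and -0.40 and Tma7 at 2.33 and -0.19 in spleen and bone marrow, and no neighbour of the other 5 genes is filled.

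Dusp7 and Tma7, both on chromosome 9, were among the genes whose pair of log2 fold changes lay closest to that of Trex1. Closeness is the Euclidean distance over the 2 comparisons among 10063 other genes with a mean of at least 20 in both tables, and it was 1.67 for Dusp7 and 1.68 for Tma7, so neither came near the Trex1 values. Dusp7, a phosphatase gene, was 2.07-fold higher in spleen and 2.64-fold higher in bone marrow in the authors' deposited tables (adjusted p = 6.47e-07 and 4.41e-08 from DESeq2), and neither call was kept with a t distribution (adjusted p = 0.312 and 0.810). Closest to Cgas were Gm4117 on chromosome 13 (0.353), Wdfy1 on chromosome 1 (0.398) and Hemk1 on chromosome 9 (0.447). Wdfy1, which encodes an adaptor of Toll-like receptor signalling, was 2.14-fold lower in spleen (-1.10 ± 0.120) and 2.80-fold lower in bone marrow (-1.48 ± 0.145) in the authors' deposited tables (adjusted p = 1.48e-16 and 5.05e-21 from DESeq2), and with a t distribution the call in spleen was kept and that in bone marrow lost (adjusted p = 0.0364 and 0.182). Gm4117 and Hemk1 did not pass in either tissue, and with 2 comparisons such likeness is a description.

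The wider pathway was read from 9 lists of 122 genes that hold none of the 6 members. In the authors' deposited tables, 0 of 120 measured genes passed a DESeq2 adjusted p of 0.05 in spleen, where 0.133% of all genes did. Of the 120, 5 had an unadjusted p under 0.05 (4.17%, against 3.02% of all genes). For bone marrow 1 of 115 passed in the authors' deposited table, where 0.534% of all genes did. There 17 had an unadjusted p under 0.05 (14.8%, against 8.85% of all genes). Of these, 5 were higher and 12 lower, where 4.19% of all genes were higher and 4.65% lower. Calls were this rare over all genes, so a list without a call is no result about its genes. The median log2 fold change over the lists was 0.04 in spleen and -0.01 in bone marrow, against -0.03 and -0.00 over all genes.

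The gene that passed was Oasl1, an interferon-induced gene of the oligoadenylate synthetase family. It was 2.42-fold lower in Cgas-/- bone marrow (-1.27 ± 0.276, adjusted p = 0.00230 from DESeq2) and had 0.06 ± 0.259 in spleen (adjusted p = 0.999997 from DESeq2) in the authors' deposited tables. The call in bone marrow was lost with Holm adjustment (adjusted p = 0.0598) and with a t distribution (0.986). Oasl1 belongs to the genes induced through STING and IRF3, whose median was 0.06 over 10 measured genes in spleen and -0.49 over 10 in bone marrow. At an unadjusted p under 0.05, 0 of these were lower in spleen (1.85% of all genes) and 4 in bone marrow (4.65% of all genes). The 4 were Oasl1, Ifit3 (-1.16 ± 0.535), Ifit1 (-0.75 ± 0.350) and Isg15 (-0.75 ± 0.372) in the authors' deposited table. Isg15, a ubiquitin-like protein, had the smallest p of the list in spleen, at 0.36 ± 0.227 in the authors' deposited table (unadjusted p = 0.115). Ifnb1 and Ifna4, the interferon genes of the list, are not among the rows analysed here. In the same bone marrow comparison the 10 monocyte markers had a median of -0.32, with 8 below 0 and 3 called lower (0.361% of all genes), between -0.60 and 0.28. The 14 erythroid markers had a median of 0.40 there, with all 14 above 0 and 1 called higher (0.173% of all genes). The 9 B cell progenitor markers were all above 0 in bone marrow, with a median of 0.27 and 1 called higher, and had a median of 0.08 over 7 measured in spleen. Of 14 neutrophil markers, 13 were below 0 in each tissue, with medians of -0.51 in spleen and -0.10 in bone marrow and 0 called. In spleen, all 14 erythroid markers were below 0, with a median of -0.86 and none called. Over all genes, 55.0% were below 0 in spleen and 50.5% in bone marrow. The part of these cell types in the values was not tested.

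Lists closer to the core held no call, where 0.133% of all genes passed in spleen and 0.534% in bone marrow. Among cGAS cofactors and other DNA sensors, 0 of 15 passed in either tissue. Zbp1, a sensor of Z-form nucleic acid, had the smallest p in both, with 0.39 ± 0.151 in spleen (unadjusted p = 0.00928) and -0.75 ± 0.232 in bone marrow (unadjusted p = 0.00125) in the authors' deposited tables, so its estimates had opposite signs. Nucleases that limit self DNA and RNA had medians of -0.03 over 11 in spleen and -0.01 over 10 in bone marrow, with 0 called. Samhd1, which degrades deoxynucleotides, had -0.02 ± 0.0813 in spleen and -0.16 ± 0.0681 in bone marrow (unadjusted p = 0.0200), and Rnaseh2b, a subunit of RNase H2, had -0.34 ± 0.177 in spleen (unadjusted p = 0.0556) in the authors' deposited tables. Genes for cGAMP transport and hydrolysis had 0 called of 12 in spleen and of 10 in bone marrow. The channel subunit gene Lrrc8d led in bone marrow at -0.18 ± 0.134 (unadjusted p = 0.186), and Lrrc8e led in spleen at -1.23 ± 0.656 with a mean normalized count of 7.28 (unadjusted p = 0.0607), both from the authors' deposited tables.

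Regulators of STING and of the kinases held no call either, against the same shares of all genes. Genes of STING trafficking and modification had medians of 0.02 in spleen and -0.06 in bone marrow over 28 genes, with 0 called. Trim56, a ubiquitin ligase, had -0.22 ± 0.102 in spleen (unadjusted p = 0.0291), and Rnf5, a ligase that marks STING for degradation, had 0.67 ± 0.268 in bone marrow (unadjusted p = 0.0119) in the authors' deposited tables. The 15 adaptors and regulators of TBK1 and IKKε lay between -0.14 and 0.32 in spleen and between -0.05 and 0.15 in bone marrow, with 0 called and none at an unadjusted p under 0.05. Azi2, an adaptor of TBK1, had the smallest p in spleen (0.12 ± 0.0980), and Cdc37, a kinase chaperone, in bone marrow (0.15 ± 0.0835) in the authors' deposited tables.

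Routes that join the core at TBK1 or run beside IRF3 also had no call, against the same shares of all genes. Ddx58, which encodes the RNA sensor RIG-I, had -0.01 ± 0.126 in spleen and -0.36 ± 0.110 in bone marrow in the authors' deposited tables (adjusted p = 0.999997 and 0.119 from DESeq2). Ticam1, the adaptor TRIF of Toll-like receptor 3, had the smallest p of its list in spleen, at 0.13 ± 0.158 in the authors' deposited table. Of the other IRF genes, Irf7, an interferon-induced relative of Irf3, had 0.31 ± 0.271 in spleen and -0.66 ± 0.192 in bone marrow in the authors' deposited tables (adjusted p = 0.999997 and 0.0790 from DESeq2). Irf5 had 0.11 ± 0.0777 in spleen in the authors' deposited table. In the NF-κB arm 12 of 13 genes were above 0 in spleen (median 0.06), where 45.0% of all genes were. In bone marrow 6 of 13 were (median -0.03), where 49.5% of all genes were, with 0 called in both tissues. The spleen median was -0.027 over all genes and 0.006 over those with a mean of at least 20. Nfkbia, the inhibitor that NF-κB itself induces, had 0.12 ± 0.0538 in spleen (unadjusted p = 0.0281) and -0.23 ± 0.0897 in bone marrow (unadjusted p = 0.0105) in the authors' deposited tables.

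**Figure D4:**
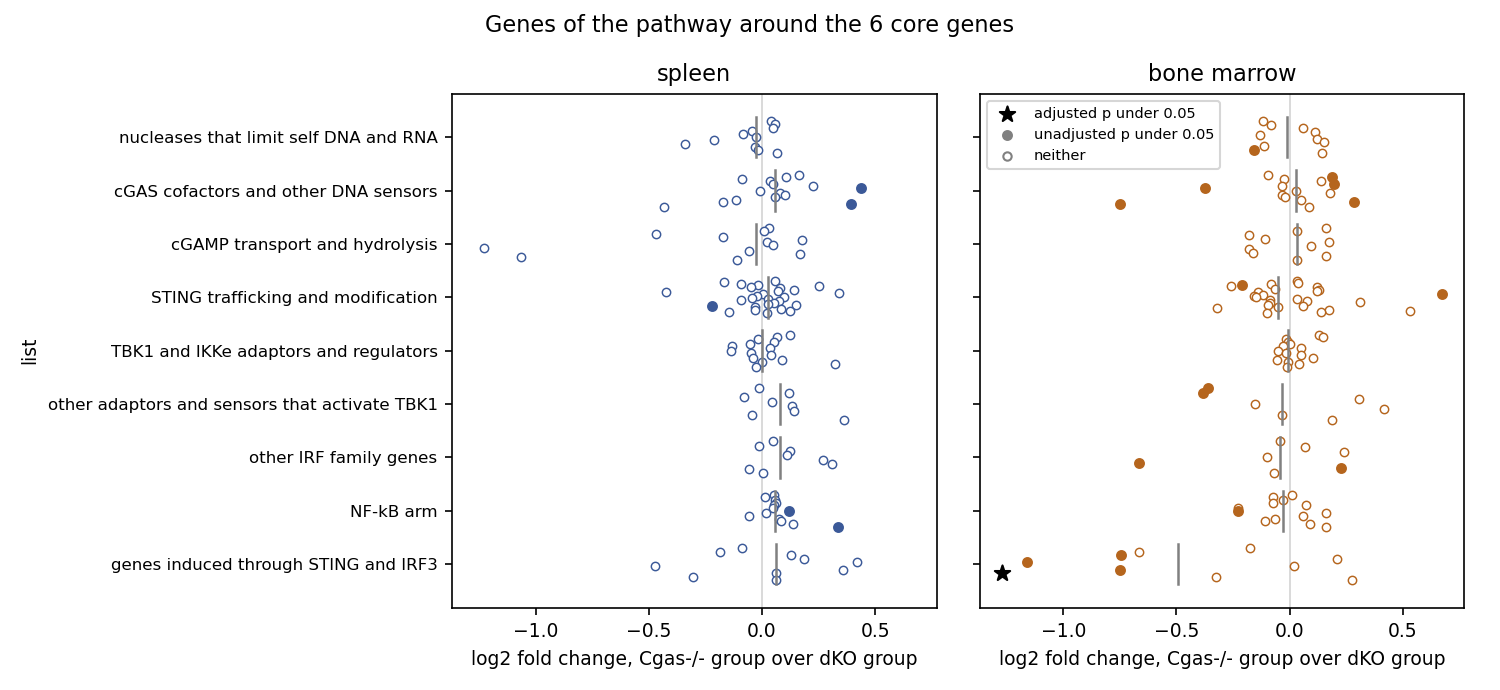
Log2 fold change (x axis, Cgas-/- group over dKO group) of each measured gene of the 9 pathway lists (rows) in spleen (left) and bone marrow (right), with the median of each list as a grey line. The star marks Oasl1 at -1.27 in bone marrow, filled points an unadjusted p under 0.05 and open points neither. The genes induced through STING and IRF3 have the lowest median in bone marrow, -0.49, against 0.06 in spleen.

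A few cell type markers, picked from longer lists, had these mean normalized counts in the authors' deposited tables. They do not test the identity of a tissue. The myeloid progenitor gene Mpo had 11486 in bone marrow and 51.7 in spleen. Dntt, a gene of lymphoid progenitors, had 197 and 16.6. In spleen Cr2 and Fcer2a, of mature B cells, had 5789 and 479, and in bone marrow 324 and 134. Spic, of red pulp macrophages, had 74.9 in spleen and 58.3 in bone marrow. Of the same list, Hmox1 had 243 and 12.3, and Slc40a1 had 370 and 984. The tables were normalized separately, so the values of a gene are not compared between tissues. In spleen 5 of the 29 called genes lay on the Y chromosome, all lower with Cgas-/- marrow, and 0 of the 77 in bone marrow. The share of all genes on that chromosome was not counted. What sets these genes apart between the spleen groups, and its part in the other spleen values, was not tested.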

How the data were processed

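RNA from suspended cells was made into QuantSeq libraries, per the labels' protocols. Upstream tools named in the submitters' processing notes were bcl2fastq 1.8.4, then Partek, STAR 2.6.1 and DESeq2 in no stated order, with the build mm10. The counter, its strand setting, the annotation, any gene filter and the DESeq2 version were not given in the sources used here. As data served the authors' 2 deposited tables of comparisons. Their mean normalized count is a signal that the authors averaged over the libraries of a comparison. Log2 fold changes with standard errors, Wald scores, ranking scores and p-values come from the authors' DESeq2 runs, per the file headers. Recomputing the Wald score, p-value and Benjamini-Hochberg adjustment gave the deposited values. With no values per library, depth is unknown and a count model was not fitted. The labels do not say that each library is from another mouse, so p-values measure only how these samples vary, and that may be technical.

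Group levels were solved from the mean and the fold change, for equal group sizes. The 95% intervals are normal. The tissue difference (spleen minus bone marrow log2 fold change) was divided by the root of the summed squared standard errors, with a two-sided normal p adjusted over 13853 genes. It was tested on simulated data of those genes, with normal errors of the deposited size. Changes were given to 200 genes with a mean of at least 20 in both tissues. The test recovered 97.8% of those given a log2 change of 2 and 74.6% of those given 1. Whether the deposited standard errors and the normal distribution suit these libraries was not tested. Symbols were matched through RefSeq (GRCm38.p6), with 18417 direct, 298 synonym and 3115 unmatched in spleen, and 12882, 151 and 1390 in bone marrow. Unmatched symbols were used as listed. Coordinates are from GENCODE M21 (GRCm38, the assembly of mm10), from 1. Members and lists were chosen with earlier results of these data known. The text names the members, each list's called genes and its gene with the smallest p per tissue, overlapping and nearest genes, and the 3 nearest in pattern to Trex1 and Cgas. A gene that this rule names is not reported here. Other genes named were chosen after their values were seen. Python 3.11.15, pandas 2.3.3, numpy 2.4.6, scipy 1.17.1 and matplotlib 3.10.9 were used.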

Additional observations from a re-analysis of the deposited data

Results flagged for a closer look

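The Trex1 log2 fold change differed between the tissues by 1.26 (spleen minus bone marrow, adjusted p = 0.00434 by the normal test over all shared genes), with 2.71 in spleen and 1.45 in bone marrow in the authors' deposited tables. It stands here because Cgas-/- over dKO gave a different size of effect in each tissue. The spleen comparison is of marrow given to dKO hosts and the other of untransplanted marrow, so tissue and transplantation cannot be told apart.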

How the results depend on the processing

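No paired analysis was possible because the tables hold no values per library, and for the same reason leaving out each replicate was not run. Of the counts, the members called in spleen fell to 1 (Trex1) with a threshold of 0.01, with Holm adjustment and with a t null distribution in place of the normal (8 degrees of freedom). With the t distribution the members called in bone marrow fell to 0 (6 degrees of freedom), and the members that differed between tissues to 0 (14 degrees of freedom). With that distribution, calls over all genes were 11 against 29 in spleen, 1 against 77 in bone marrow and 2 against 8 between tissues. Nearly all calls in bone marrow were lost, so a call lost there does not set a gene apart from the others. Pathway list genes called in bone marrow were 2 with a threshold of 0.1 (Irf7 added), 0 with Holm adjustment and 0 with the t distribution. Adjusting over genes with a mean of at least 20 or centring on the median log2 fold change moved none of the counts of members or pathway list genes by over 1.5 times. Calls over all genes in bone marrow were 32 at a threshold of 0.01, 124 at 0.1 and 23 with Holm, against 77. These alternatives change thresholds, adjustments or a common shift, so they do not test the stability of a direction. The unknown depth limits what the 4 members without a call can show.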
